A study of Rattus norvegicus with 6 samples.

Results

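Interferon response genes, the transcripts that cells switch on after interferon has bound its receptor, were followed in rat renal cortex as a set of 35 named genes. A gene belonged to the set where the accession of a non-control array probe mapped to its current RefSeq symbol. Of the 35 genes, 31 had at least 1 such probe, 56 probes in all, and these 31 were among the 29938 genes tested. Ifi44l, Rigi, Xaf1 and Herc6 had no probe under this rule and were not analysed here. The study gave phenylbutazone, an anti-inflammatory cyclooxygenase inhibitor, at 200 mg/kg/day to 3 male Sprague-Dawley rats for 4 weeks, and corn oil as the vehicle to 3 others for the same time. The animals were 5 weeks old when bought, and each animal's cortical total RNA, the only tissue measured, was hybridised to its own single-colour Agilent array. The 3 phenylbutazone arrays and vehicle array 3 shared slide 2, whereas vehicle arrays 1 and 2 shared slide 1.

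Interferons are secreted proteins that signal through JAK kinases and STAT proteins. Type I interferons lead to ISGF3, a complex with Stat2 and Irf9 that binds the interferon-stimulated response element (ISRE), and interferon gamma acts through the gamma-activated site (GAS). The induced genes encode proteins that block viral replication, sense foreign RNA, restrain the signal and prepare peptides for MHC class I. In the kidney, tubular, endothelial and resident immune cells can all express them, and in RNA of a whole cortex fewer cells of a type and less RNA per cell cannot be told apart.

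The ISRE is the sequence that links most of these genes, so the windows that hold it are shown for 8 members described below. RefSeq promoter windows of the build GRCr8, from 250 bases before the start of the gene to 50 bases after it, were found for 27 of the 35 genes. The ISRE core was searched as GAAA, any 2 bases and GAAA, and the GAS as TTC, any 3 bases and GAA, both on both strands. In 18 of the 27 windows (66.7%) there was an ISRE match, against 1312 of all 33469 windows (3.92%), and in 9 (33.3%) a GAS match, against 2970 of all windows (8.87%). Of the 24 ISRE matches 1 shared bases with a GAS match. Each line gives the strand of the gene, 5′ to 3′, with the match in capitals. TTTC, any 2 bases and TTTC is the same core read from the other strand, and the longer capitals in Oas1a and Oas1b are 2 overlapping matches.
Irf7: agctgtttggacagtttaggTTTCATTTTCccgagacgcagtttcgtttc
Ifit3: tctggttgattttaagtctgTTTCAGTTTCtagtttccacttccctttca
Gbp2: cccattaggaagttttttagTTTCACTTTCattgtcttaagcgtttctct
Gbp5: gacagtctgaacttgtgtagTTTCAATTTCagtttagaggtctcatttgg
Ifi44: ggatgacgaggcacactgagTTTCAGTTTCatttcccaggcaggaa
Oas1a: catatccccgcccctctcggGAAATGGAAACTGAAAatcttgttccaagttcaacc
Oas1b: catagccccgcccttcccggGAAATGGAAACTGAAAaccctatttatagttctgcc
Oasl2: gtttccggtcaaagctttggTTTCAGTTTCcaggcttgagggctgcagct
The Irf7 window lies at chr1:205800063-205800112 on the minus strand, with its match 69 to 60 bases before the start, and the Ifit3 window at chr1:241527262-241527311 on the plus strand, with its match 44 to 35 bases before it. The Gbp2 window lies at chr2:234005676-234005725 and the Gbp5 window at chr2:233910923-233910972, both on the plus strand. The Ifi44 window lies at chr2:243303841-243303886 on the minus strand. The windows of Oas1a (chr12:41330405-41330460, plus strand) and Oas1b (chr12:41395876-41395931, minus strand) carried the same letters over the whole double match. The Oasl2 window lies at chr12:47383307-47383356 on the minus strand, with its match 151 to 142 bases before the start.

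Levels are log2 processed intensities relative to the 75th percentile of each array, so that 0 is the intensity of that percentile, and a level is compared only between arrays for the same probe. The share of probes well above background ran from 65.2% to 68.4% per array, and no spot was saturated. All 8 listed proximal tubule markers of the cortex were measured, with mean deviations from their own 6-array means of 0.012 to 0.018 log2 units on phenylbutazone arrays and -0.067 to 0.043 on vehicle arrays. The 6 thick limb and collecting duct markers, all measured, deviated by 0.031 to 0.18 on phenylbutazone arrays and by 0.0055, 0.089 and -0.40 on vehicle arrays 1, 2 and 3, so that vehicle 3 was low in these too. Their summed linear levels were 533 to 612 times the 75th percentile for phenylbutazone, with 379 to 534 for vehicle, and their part in the results below was not tested. With 3 arrays a group, an exact two-sided permutation test of a single value cannot go below p = 0.10.

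Phenylbutazone was set against vehicle to ask which transcripts differ after 4 weeks of dosing. The interferon response genes did not separate the groups as a set: 16 stood higher (51.6%, against 52.8% of all genes) and 15 lower (48.4%, against 47.2%) on phenylbutazone arrays, with a median log2 difference of 0.021, beside 0.015 over all genes tested. With slide as a random block 24 stood higher (77.4%, against 54.6% of all genes) and 7 lower (median 0.14). With arrays scaled to their median 20 stood higher (64.5%, against 60.5% of all genes) and 11 lower (median 0.068). Of the 31 genes 0 passed a limma adjusted p of 0.05, as did 0 of all 29938 genes (0.0%), and the members' adjusted p values ran from 0.323 to 1.000. At an unadjusted p under 0.05 there were 3 members, Psmb8 higher (3.23% of members, against 5.97% of all genes) and Ifit1 and Oasl2 lower (6.45%, against 6.24%), 9.68% of members in all against 12.2% of all genes. Ifit1 cleared the filter on dim probes only through the vehicle arrays. Without it 2 of 30 members (6.67%) had such a p. The 2 groups did not overlap in 6 members (19.4%, against 21.5% of all genes), 3 higher (9.68%, against 12.1%) and 3 lower (9.68%, against 9.39%). Ifit1 was among the 3 lower. Where all 6 arrays had to be well above background, which leaves Ifit1 out, this count was 5 of 30 members, 3 higher and 2 lower. The share of all genes was not counted under that filter, so these 5 are not read as a result. No member differed by 2-fold or more in either direction, against 1.76% of all genes.

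**Figure D1:**
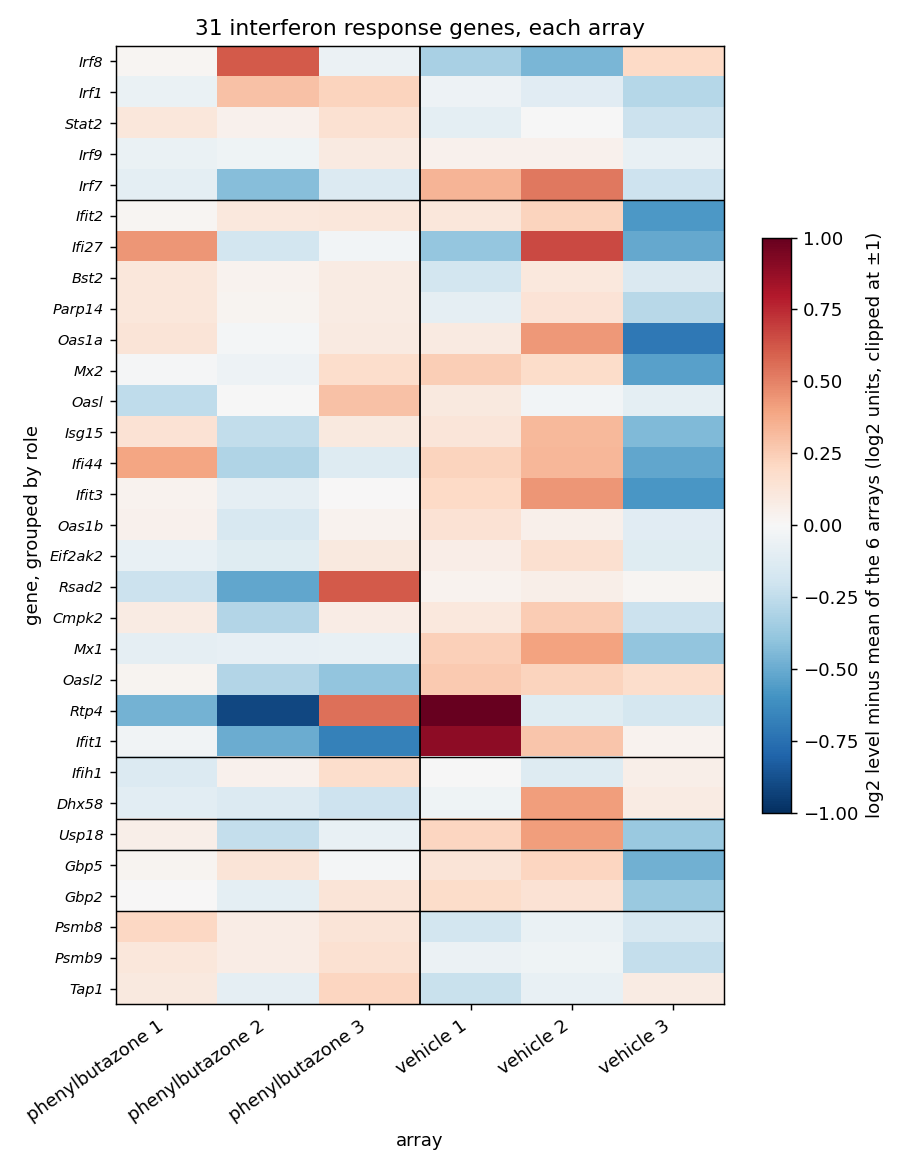
Heat map of the 31 interferon response genes tested, with genes in rows grouped by role and the 6 arrays in columns; colour is the log2 level minus the gene's mean over the 6 arrays. Vehicle 3 is the lowest array in 17 genes and the highest in 0, and vehicle 1 or 2 is the highest in 19.

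Among the transcription factors, the 5 members did not stand on the same side of vehicle. Irf7, the factor that amplifies transcription of type I interferon genes, had levels of 1.35, 1.02 and 1.31 on phenylbutazone arrays 1, 2 and 3, against 1.79, 1.97 and 1.24 on vehicle arrays 1, 2 and 3. Vehicle 3 lay within the phenylbutazone range and the other two vehicle arrays above it. Irf7 differed by -0.44 ± 0.21 log2 units (± SE here and below, 3 arrays in each group), which is 1.35-fold lower. Its limma adjusted p was 0.465. Against vehicle 3 alone it was -0.0080, against vehicle 1 and 2 it was -0.65, and without vehicle 2 it was -0.28.

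Irf1, a factor induced by interferon gamma, had 1.96, 2.32 and 2.25 on phenylbutazone arrays, against 1.98, 1.91 and 1.74 on vehicle arrays. Phenylbutazone 1 was the array on which the groups overlapped, below vehicle 1. The difference was 0.30 ± 0.13, 1.23-fold higher, with a limma adjusted p of 0.444. A second, dimmer Irf1 probe differed by only 0.012. Stat2, a subunit of ISGF3, had 2.12, 2.05 and 2.16 in phenylbutazone, against 1.91, 2.00 and 1.80 in vehicle. The Stat2 groups did not overlap, and the difference was 0.21 ± 0.10, 1.16-fold higher, with a limma adjusted p of 0.460. With a second, dimmer Stat2 probe the groups overlapped, and the difference was 0.088.

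Irf9, the DNA-binding subunit of ISGF3, had -1.39, -1.37 and -1.24 in phenylbutazone, against -1.28, -1.29 and -1.40 in vehicle, and the groups covered the same range. Its difference of -0.011 ± 0.098 had a 95% confidence interval of -0.25 to 0.23. A second Irf9 probe of similar brightness did not show the same range. It had -1.62, -1.47 and -1.48 in phenylbutazone, against -1.30, -1.20 and -1.44 in vehicle. With that probe the groups did not overlap, and the difference was -0.21. Irf8, a factor of myeloid and dendritic cells, had -3.55, -2.96 and -3.63 in phenylbutazone, against -3.90, -4.03 and -3.37 in vehicle. The vehicle value on slide 2 exceeded 2 of the 3 phenylbutazone values, and the difference was 0.38 ± 0.25 and 0.18 without phenylbutazone 2 (limma adjusted p = 0.566 with all arrays).

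The 18 antiviral effectors tested had a median difference of -0.030, 7 higher and 11 lower, where 47.2% of all genes stood lower. In 3 genes of the whole set, 2 of them effectors, all phenylbutazone values were below all vehicle values. Ifit1, which encodes a protein that binds viral RNA lacking the host cap methylation, had -5.51, -5.97 and -6.16 on phenylbutazone arrays, against -4.58, -5.20 and -5.44 on vehicle arrays. Its probe cleared background on 0 of the 3 arrays of treated animals and all 3 vehicle arrays, so that its fold depends on the floor used. Vehicle was 1.40-fold higher than a floor averaged over phenylbutazone arrays. This floor is the probe's own level or, where that is lower, the lowest level of any probe well above background on the array. The limma difference of -0.80 ± 0.27 rests on phenylbutazone values below background (limma adjusted p = 0.353). It was -0.44 against vehicle 3 alone and -0.18 with a normexp background correction.

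Oasl2, an oligoadenylate synthetase-like antiviral gene, had 0.20, -0.13 and -0.23 in phenylbutazone, against 0.43, 0.39 and 0.34 in vehicle. All 3 vehicle arrays lay close together above the treated animals. Its difference of -0.44 ± 0.13, 1.36-fold lower, had the smallest unadjusted p of the set, 0.0161 (limma adjusted p = 0.323). Against vehicle 3 alone it was -0.39 and against vehicle 1 and 2 it was -0.47. The vehicle arrays of either slide thus gave about the same value, although slide 1 holds no phenylbutazone array.

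A larger group of effectors was spread mainly among the vehicle animals. Mx1, a dynamin-like GTPase that blocks influenza virus, had 1.70, 1.71 and 1.71 on phenylbutazone arrays, against 2.03, 2.19 and 1.40 on vehicle arrays. The treated animals were nearly identical and lay between vehicle 3 and the other two vehicle arrays. The Mx1 difference was -0.16 ± 0.21, with a 95% confidence interval of -0.68 to 0.35 and a limma adjusted p of 0.781. Against vehicle 3 alone it was 0.31 and against vehicle 1 and 2 it was -0.40.

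Mx2, the related GTPase, had 6.13, 6.09 and 6.32 in phenylbutazone, against 6.39, 6.32 and 5.60 in vehicle, and its difference was 0.075 ± 0.23. Oas1a, an enzyme that makes the oligoadenylate messenger of RNase L, had 1.06, 0.91 and 1.02 in phenylbutazone, against 1.03, 1.37 and 0.22 in vehicle. Vehicle 3 was the lowest array for both genes, by a wide margin in Oas1a. The Oas1a difference was 0.13 ± 0.29 against all vehicle arrays, 0.78 against vehicle 3 and -0.20 against vehicle 1 and 2.

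Ifit3, a partner of Ifit1, had -2.37, -2.49 and -2.39 in phenylbutazone, against -2.20, -1.96 and -2.98 in vehicle. Ifit2, which belongs to the same family, had -1.52, -1.43 and -1.43 in phenylbutazone, against -1.43, -1.32 and -2.11 in vehicle. By these probes the treated animals lay close together in both genes, between vehicle 3 and the other two vehicle arrays. Their differences were -0.038 ± 0.26 for Ifit3 and 0.16 ± 0.22 for Ifit2, and against vehicle 3 alone they were 0.56 and 0.65. Second, dimmer probes did not show this order. That of Ifit2 had -3.92, -3.72 and -3.64 in phenylbutazone, against -4.16, -4.09 and -4.02 in vehicle (0.33), without overlap. That of Ifit3 had -3.99, -4.62 and -4.47 in phenylbutazone, against -3.94, -3.78 and -4.07 in vehicle (-0.43).

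Isg15, a ubiquitin-like protein that is attached to other proteins, had 0.91, 0.53 and 0.87 in phenylbutazone, against 0.89, 1.09 and 0.33 in vehicle. The group means were 0.77 in phenylbutazone and 0.77 in vehicle, and the 95% confidence interval of the difference was -0.55 to 0.55. Ifi44, an interferon-induced antiviral gene, had 0.59, -0.10 and 0.064 in phenylbutazone, against 0.42, 0.52 and -0.33 in vehicle. Phenylbutazone 1 and vehicle 2 were its highest arrays and vehicle 3 its lowest, and the difference was -0.022 ± 0.28.

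**Figure D2:**
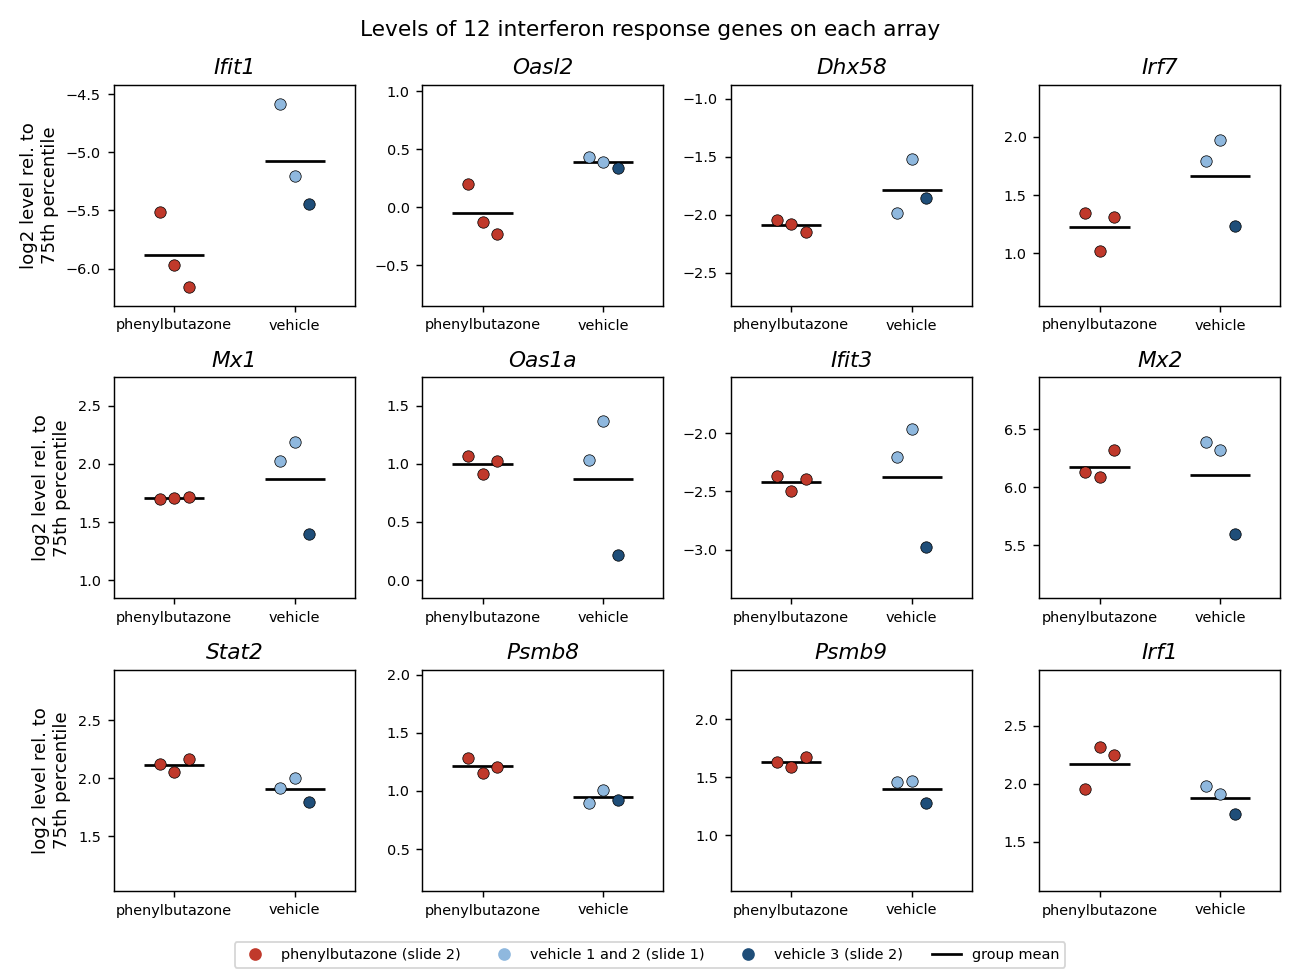
Log2 level relative to the array's 75th percentile (vertical axis, the same span of 1.9 log2 units in every panel) for 12 genes, with phenylbutazone animals left of vehicle animals; each point is an array, lines are group means, and colour marks the slide. Mx1, Oas1a, Ifit3 and Mx2 have vehicle 3 at the bottom, whereas Psmb8, Psmb9 and Stat2 have all 3 phenylbutazone arrays above all vehicle arrays.

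Ifi27, an interferon-induced mitochondrial protein gene, had levels of 4.85 to 5.47 in phenylbutazone, against 4.64, 5.69 and 4.51 in vehicle. The treated animals lay between vehicle 2, the highest array, and the other two vehicle arrays, and the difference was 0.16 ± 0.35. Rtp4, an interferon-inducible receptor chaperone gene, had -0.23, -0.67 and 0.80 in phenylbutazone, against 1.38, 0.12 and 0.072 in vehicle. It had the widest range of the set, 2.04 log2 units, with 1 high animal in each group, and its difference of -0.56 ± 0.50 had a limma adjusted p of 0.678 and was -0.13 without vehicle 1 and -0.97 without phenylbutazone 3. Rsad2, which encodes viperin, had 0.64, 0.34 and 1.47 in phenylbutazone, against 0.90, 0.92 and 0.88 in vehicle. Here the spread lay in the treated animals and the vehicle animals were nearly equal.

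The remaining 6 effectors differed by -0.092 to 0.15 log2 units. Bst2, which encodes tetherin, a protein that holds budding virus at the cell surface, had 2.16, 2.08 and 2.13 in phenylbutazone, against 1.86, 2.15 and 1.90 in vehicle (0.15 ± 0.11). Parp14, an ADP-ribosyltransferase gene, had 2.60, 2.51 and 2.56 in phenylbutazone, against 2.39, 2.62 and 2.20 in vehicle (0.15 ± 0.13). In both genes only vehicle 2 reached the treated animals. Oas1b, a near relative of Oas1a whose probe could also bind its paralogs, had 5.79, 5.58 and 5.78 in phenylbutazone, against 5.89, 5.79 and 5.63 in vehicle (-0.058 ± 0.12). Oasl had -4.73, -4.48 and -4.18 in phenylbutazone, against -4.37, -4.50 and -4.57 in vehicle (0.021 ± 0.16). The groups overlapped in both of these oligoadenylate synthetase genes. Cmpk2, a mitochondrial nucleotide kinase gene, had 0.21, -0.16 and 0.21 in phenylbutazone, against 0.24, 0.38 and -0.084 in vehicle (-0.092 ± 0.17). Eif2ak2, which encodes the RNA-activated kinase PKR, had -0.35, -0.39 and -0.17 in phenylbutazone, against -0.21, -0.11 and -0.39 in vehicle (-0.066 ± 0.12). Both had vehicle 2 as their highest array.

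Of the cytoplasmic RNA sensors, Dhx58 stood lower and Ifih1 did not separate. Dhx58, which encodes LGP2, a regulator of the other sensors of its family, had -2.05, -2.08 and -2.15 in phenylbutazone, against -1.98, -1.52 and -1.85 in vehicle. The groups did not overlap, although vehicle 1 lay close to the treated animals. The difference was -0.30 ± 0.14, 1.24-fold lower (limma adjusted p = 0.451), and it was -0.24 against vehicle 3 alone and -0.17 without vehicle 2. With each of the further, dimmer Dhx58 probes the groups overlapped, and the differences were -0.29 and -0.21. Ifih1, which encodes the sensor MDA5 of long double-stranded RNA, had -3.26, -3.09 and -2.95 in phenylbutazone, against -3.13, -3.26 and -3.07 in vehicle, a difference of 0.052 ± 0.12. Usp18, which removes Isg15 from proteins and holds back signalling at the type I receptor, had -1.73, -2.03 and -1.87 in phenylbutazone, against -1.58, -1.38 and -2.17 in vehicle. As for Mx1, all 3 treated animals lay between vehicle 3 and the other two vehicle arrays, and the difference was -0.17 ± 0.22.

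The guanylate-binding proteins, GTPases that attack vacuoles of intracellular pathogens and respond mainly to interferon gamma, both had their lowest level on vehicle 3. Gbp2 had 1.11, 1.01 and 1.24 in phenylbutazone, against 1.29, 1.25 and 0.73 in vehicle, a difference of 0.027 ± 0.18. Gbp5 had -1.69, -1.60 and -1.74 in phenylbutazone, against -1.60, -1.51 and -2.21 in vehicle, a difference of 0.094 ± 0.20. In Gbp2 all treated animals lay between vehicle 3 and the other two vehicle arrays, and in Gbp5 phenylbutazone 2 was level with vehicle 1. Against vehicle 3 alone the differences were 0.39 for Gbp2 and 0.53 for Gbp5.

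Of the 3 antigen processing genes, Psmb8 and Psmb9 stood higher whichever vehicle arrays were used, and Tap1 did not. Psmb8, which encodes a catalytic subunit of the immunoproteasome, had 1.28, 1.15 and 1.21 in phenylbutazone, against 0.90, 1.01 and 0.92 in vehicle. All treated animals lay above all vehicle animals. The difference was 0.27 ± 0.094, 1.21-fold higher, with an unadjusted p of 0.0270 and a limma adjusted p of 0.361. It was 0.29 against vehicle 3 alone and 0.26 against vehicle 1 and 2.

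Psmb9, another catalytic subunit of the immunoproteasome, had 1.63, 1.59 and 1.67 in phenylbutazone, against 1.46, 1.47 and 1.28 in vehicle. The groups again did not overlap, and the difference was 0.23 ± 0.10, 1.17-fold higher, with a limma adjusted p of 0.431. Tap1, a subunit of the transporter that moves peptides into the endoplasmic reticulum, had -1.23, -1.42 and -1.11 in phenylbutazone, against -1.55, -1.40 and -1.25 in vehicle. The Tap1 groups overlapped, and its difference of 0.15 ± 0.13 was -0.0049 against vehicle 3 alone.

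**Figure D3:**
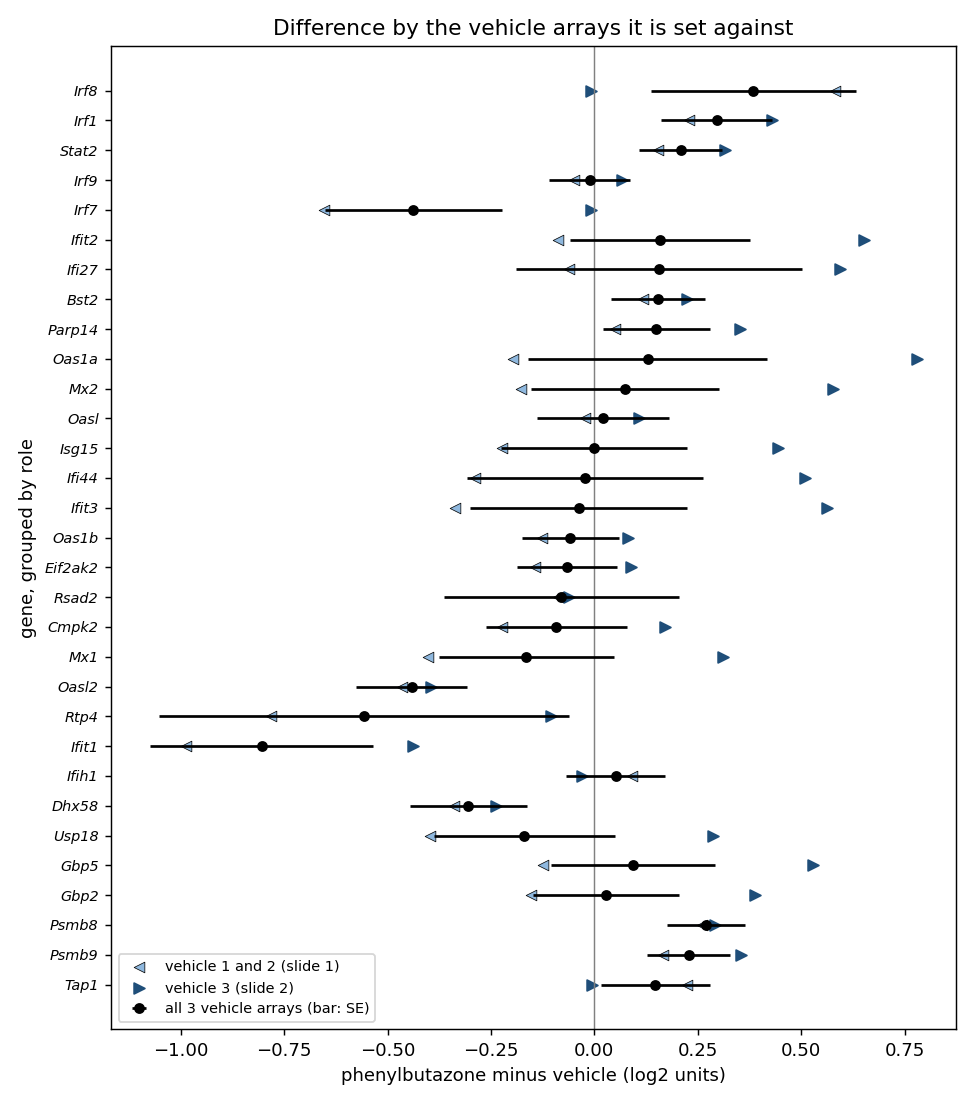
Log2 difference of phenylbutazone minus vehicle (horizontal axis) for each gene (rows, grouped by role): black points with SE bars use all 3 vehicle arrays, light triangles vehicle 1 and 2 of slide 1, and dark triangles vehicle 3 of slide 2. The light and dark triangles lie on opposite sides of 0 in 19 of 31 genes and close together for Psmb8 and Oasl2.

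The direction of most members differed with the vehicle animals used. Against vehicle 3, on the slide of the treated animals, 22 of 31 members stood higher (71.0%, against 55.4% of all genes) with a median of 0.29 (beside 0.055 over all genes), whereas against vehicle 1 and 2 9 stood higher (29.0%, against 49.5%) with a median of -0.13 (beside -0.0027). The sign differed between these settings in 19 members (61.3%), against 43.4% of all genes. In 16 of the 19 phenylbutazone was higher than vehicle 3 and lower than vehicle 1 and 2 (51.6% of members, against 24.6% of all genes). By the probe used for each gene, vehicle 3 was the lowest of the 6 arrays in 17 members (54.8%, against 34.3% of all genes). It was the highest in 0 (0.0%, against 23.4%), and further probes, given below, did not all show this. Vehicle 1 or 2 was the highest array in 19 (61.3%, against 33.2%), vehicle 2 in 13 (41.9%, against 16.2%) and vehicle 1 in 6 (19.4%, against 17.1%). All 3 phenylbutazone arrays lay above vehicle 3 in 19 members (61.3%, against 41.4%) and below it in 3 (9.68%, against 31.1%). By the probe used, they lay between vehicle 3 and both other vehicle arrays in 6 members, Mx1, Mx2, Ifit2, Ifit3, Usp18 and Gbp2 (19.4%, against 7.88%). Slide and scan day divide the arrays in the same way, and vehicle 3 is the only vehicle array of slide 2, so that in the vehicle group animal and slide cannot be told apart.

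The within-group spread was wider in vehicle. The median SD over the members was 0.12 log2 units in phenylbutazone and 0.24 in vehicle, beside 0.12 and 0.21 over all genes, and it was larger in vehicle in 21 of 31 members (67.7%, against 67.8% of all genes). Averaged over the 31 members, the deviation from a gene's own mean was 0.018, -0.11 and 0.058 on phenylbutazone arrays 1, 2 and 3, against 0.10, 0.16 and -0.23 on vehicle arrays 1, 2 and 3. The treated animals thus lay inside the range of the vehicle animals. Among 12124 other genes with a symbol, those whose 6 array values followed this average most closely were Fubp1, Klhl23, Sp110, Lgals8 and Pcsk6, with Pearson correlations of 0.989 to 0.996 over 6 arrays that also share their slides.

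With slide as a fixed block, which takes the difference from slide 2, 11 members had an unadjusted p under 0.05 and all stood higher (35.5% of members, against 19.5% of all genes), none lower (against 12.1%), with 0 at a limma adjusted p under 0.05 among members and among all genes (0.0%). On slide 2 alone these were 10 (32.3%, against 16.5%), with 0 lower (against 10.5%). The 11 were Mx1, Mx2, Ifit2, Ifit3, Oas1a, Stat2, Gbp2, Gbp5, Psmb8, Psmb9 and Parp14. Without vehicle 3, where treatment and slide coincide, 7 members had an unadjusted p under 0.05: Psmb8 higher (3.23%, against 10.1% of all genes) and Irf7, Mx1, Ifit1, Ifit3, Oasl2 and Usp18 lower (19.4%, against 11.9%). Of these, Ifit1 rests on phenylbutazone values below background. In that setting 0 members passed a limma adjusted p of 0.05, against 814 of all genes (2.72%). Mx1 and Ifit3 were in both lists, with opposite signs. Psmb8 was in both with the same sign.

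Members were also divided by the ISRE match in their promoter window. The 16 tested members with a match had a median difference of 0.040, 9 higher and 7 lower, and the 8 with a window but no match 0.11, 5 higher and 3 lower. The other 7 tested members, which had no window, had a median of -0.17, 2 higher and 5 lower. Vehicle 3 was the lowest array in 8 of the 16, in 5 of the 8 and in 4 of the 7. Among all genes tested 52.8% stood higher, and vehicle 3 was the lowest array in 34.3%. Psmb8 and Oasl2, which stood apart in opposite directions, both carried a match. Of the other members with groups apart, Stat2 and Psmb9 had a window without a match, and Ifit1 and Dhx58 had no window.

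The pathway upstream of these genes was described with listed genes, of which 0 genes passed a limma adjusted p of 0.05. Over all genes tested 52.8% stood higher, with a median difference of 0.015. Of 6 interferon ligands with a probe only Ifna4 was measured well enough to test, with -2.59, -2.60 and -2.39 in phenylbutazone, against -2.46, -2.42 and -2.17 in vehicle. Ifnb1, Ifng, Ifna5 and Ifnk were well above background on no array. All 4 tested receptor subunits stood higher, with 0 at an unadjusted p under 0.05 (limma) and a median of 0.21. The nearest to the threshold were Il10rb, a subunit shared by the lambda interferon and interleukin 10 receptors, at 0.25 ± 0.15, and Ifngr2, of the interferon gamma receptor, at 0.24 ± 0.17. Without vehicle 3 they were 0.11 and 0.088. Of all 10 tested kinases, STATs and their inhibitors 6 stood higher and 4 lower, with 0 at an unadjusted p under 0.05 (limma) and a median of 0.020. The phosphatase genes Ptpn6 and Ptpn2 stood at 0.15 ± 0.12 and -0.093 ± 0.13, and the receptor kinase gene Jak1 at -0.086 ± 0.11. Without vehicle 3 they were 0.060 for Ptpn6, -0.20 for Ptpn2 and 0.0040 for Jak1, and against vehicle 3 alone Ptpn2 was 0.12.

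The 11 tested sensors, adaptors and kinases upstream of interferon held 3 genes at an unadjusted p under 0.05 that stood higher and 1 that stood lower, beside 5.97% and 6.24% of all genes. Tlr3, the endosomal receptor for double-stranded RNA, had 1.85, 0.85 and 1.17 in phenylbutazone, against 0.76, 0.028 and 0.58 in vehicle. Its groups did not overlap, and the difference of 0.84 ± 0.31 had a limma adjusted p of 0.377. Sting1, the adaptor for cytosolic DNA, had 0.19, 0.45 and 0.59 in phenylbutazone, against 0.0069, -0.047 and -0.14 in vehicle, a difference of 0.47 ± 0.13 (limma adjusted p = 0.303). Both kept their sign against vehicle 3 alone, at 0.71 for Tlr3 and 0.55 for Sting1. Irf5, a factor downstream of Toll-like receptors, had 0.44, 0.69 and 0.76 in phenylbutazone, against 1.13, 0.85 and 1.07 in vehicle, with all treated animals lower. Myd88, an adaptor of Toll-like receptors that was named after its values were seen, had 3.50, 3.64 and 3.73 in phenylbutazone, against 3.35, 3.38 and 2.89 in vehicle (0.42 ± 0.16). Mavs, the mitochondrial adaptor of the RNA sensors, stood at -0.14 ± 0.10, and at -0.071 without vehicle 2.

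Other interferon-inducible genes stood on both sides of vehicle. For comparison, 52.8% of all genes tested stood higher, and 5.97% were higher and 6.24% lower at an unadjusted p under 0.05 (limma). Of 36 further antiviral genes tested 20 stood higher and 16 lower, with a median of 0.038, 0 higher and 1 lower at an unadjusted p under 0.05 (limma), the ADP-ribosyltransferase family gene Parp9 at -0.30 ± 0.11. Its partner gene Dtx3l stood at -0.37 ± 0.16, and the exonuclease gene Isg20 at 0.34 ± 0.14 and the ubiquitin ligase gene Trim21 at 0.33 ± 0.15. Of 19 further genes of the interferon gamma response and antigen presentation 12 stood higher and 7 lower, with a median of 0.12, 3 higher and 1 lower at an unadjusted p under 0.05. Psme2, a subunit of the proteasome activator PA28, had 5.16, 5.08 and 5.11 in phenylbutazone, against 4.74, 4.76 and 4.45 in vehicle. Like Psmb8 and Psmb9 its groups did not overlap, and the difference was 0.46 ± 0.12 (limma adjusted p = 0.285). Cxcl10, a chemokine for T cells, had 0.056, 0.88 and 0.86 in phenylbutazone, against -0.23, 0.11 and -0.75 in vehicle, a difference of 0.89 ± 0.31. Tap2, the partner subunit of Tap1, also named after its values were seen, had 1.82, 0.90 and 1.39 in phenylbutazone, against 0.57, 0.76 and 0.95 in vehicle. Its difference of 0.61 ± 0.25 came with overlapping groups. The immunity-related GTPase gene Irgm stood at -0.37 ± 0.13 and the adhesion molecule gene Vcam1 at -0.19 ± 0.20. Vcam1 was 0.22 against vehicle 3 alone and -0.39 without it.

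Marker lists of blood cells were followed over the same arrays. The 5 tested NK cell markers of 6 had mean deviations of -0.17 to 0.083 on phenylbutazone arrays and of 0.20, 0.18 and -0.27 on vehicle arrays 1, 2 and 3. Vehicle 3 was the lowest array in only 2 of the 5. Summed over the list, their linear levels relative to the 75th percentile ran from 1.348 to 1.382 on phenylbutazone arrays and from 1.385 to 1.440 on vehicle arrays. In these sums every vehicle array, vehicle 3 included, lay above every phenylbutazone array. Ncr1 was too dim to test. The 9 tested erythrocyte markers of 11 had mean deviations of -0.22 to 0.50 in phenylbutazone and -0.38 to -0.065 in vehicle. Vehicle 3 had the lowest mean deviation but was the lowest array in only 2 of the 9. Summed levels of these markers were 580 to 923 for phenylbutazone and 494 to 677 for vehicle. The 4 tested B cell markers of 6 had summed levels of 1.53 to 1.74 for phenylbutazone and 1.42 to 2.27 for vehicle, and the 4 tested neutrophil markers of 7 had 0.50 to 0.94 for phenylbutazone and 0.37 to 0.88 for vehicle, with Elane and Ngp well above background on no array. Both had their lowest mean deviation in vehicle 3, at -0.43 and -0.54, although it was the lowest array in only 2 of the 4 markers of each list. The 9 tested T cell markers of 10 stood the other way, with vehicle 3 highest at 0.40, the other vehicle arrays at -0.28 and -0.25 and phenylbutazone arrays at -0.32 to 0.39 (summed levels 1.61 to 2.41 in phenylbutazone, with 1.64 to 2.20 in vehicle). The 12 tested macrophage and dendritic cell markers of 17 had deviations of -0.27 to 0.35 for phenylbutazone and -0.090 to -0.029 for vehicle (summed levels 82.9 to 110 for phenylbutazone, 85.5 to 112 for vehicle). The part of these cells in the interferon values was not tested.

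**Figure D4:**
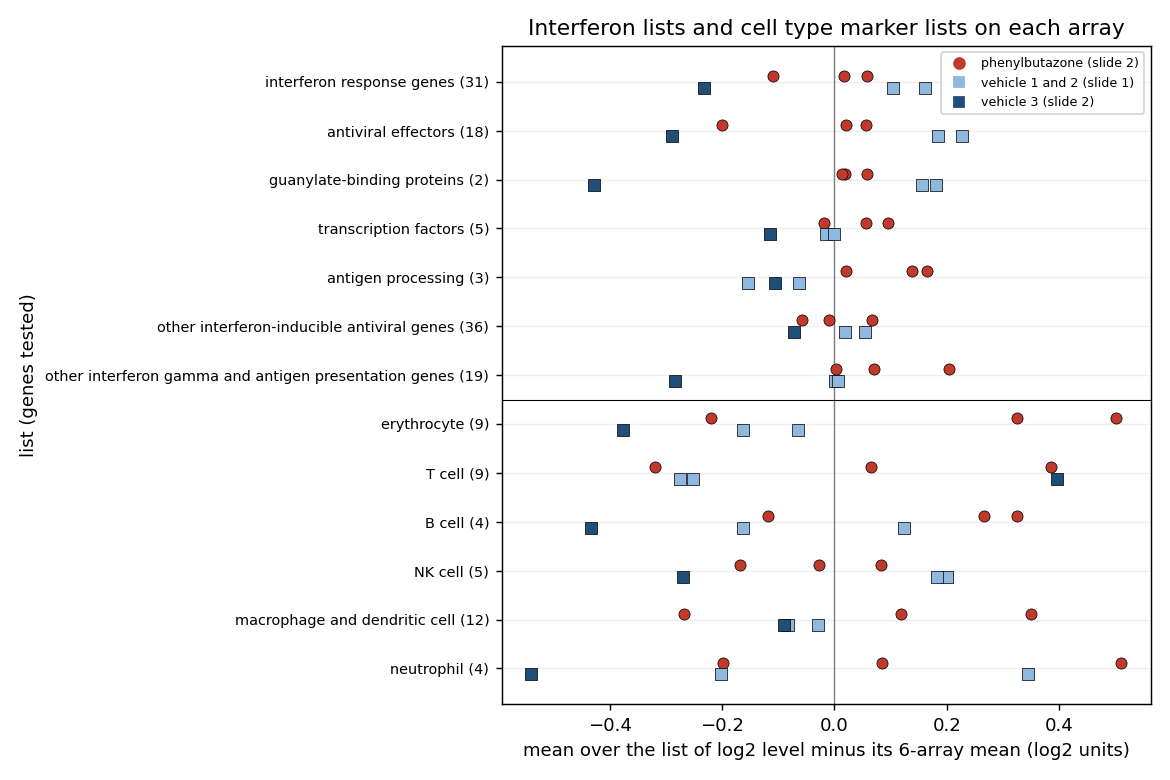
Mean over each list of the log2 level minus the gene's mean over the 6 arrays (horizontal axis), 1 point per array, for the interferon lists above the line and blood cell marker lists below it. Vehicle 3 lies at -0.23 for the 31 interferon response genes and at -0.43 for the guanylate-binding proteins, with NK cell markers at -0.27 and T cell markers at 0.40 on the same array.

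For 19 of the 31 members more than 1 probe was present, and a gene is represented by its brightest probe. Of the 25 further probes 6 had the opposite sign. These were a probe of Mx2 (-0.34, against 0.075 for the probe used), of Oas1a (-0.25, against 0.13), of Bst2 (-0.14, against 0.15), of Parp14 (-0.075, against 0.15), of Eif2ak2 (0.16, against -0.066) and of Gbp5 (-1.15, against 0.094). The Gbp5 probe was well above background on 4 of 6 arrays, and its value rested on vehicle 2, at -2.70, with the other arrays at -6.38 to -5.38. Among all 25 further probes vehicle 3 was the lowest array only for that of Mx2 (-3.60), 1 of Usp18 (-3.225) and those of Ifi44 (-0.76 and -0.61). It was the highest array for further probes of Irf1 (-1.74), Cmpk2 (-2.32) and Parp14 (-1.05). The low vehicle 3 of the probes used was thus not found in most further probes.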

How the data were processed

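Renal cortex RNA of 6 rats was measured on 6 arrays, 3 per group, labelled biological replicates in the series design. Per the file headers and the submitters' processing notes, images were read with Agilent Feature Extraction 10.7, and the deposited processed signal is an intensity, background-subtracted and detrended with no normalization across arrays. The value table, also deposited, holds a ratio: set against the scanner files it was the processed intensity divided by the array's 75th percentile. Its column medians were 0.105, 0.106 and 0.107 for phenylbutazone 1 to 3 and 0.110, 0.110 and 0.109 for vehicle 1 to 3, and 0 columns were left unmapped.

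Of 61537 non-control probes, 40 with an outlier flag were left out and 41006 well above background on at least 3 arrays kept. The array's 75th percentile was subtracted from log2 intensity. Unversioned accessions were matched to RefSeq symbols (GRCr8, names only), which named 28206 probes (45.8%). A gene was its probe with the highest mean level. Differences, phenylbutazone minus vehicle, came from limma 3.58.1 (lmFit, eBayes; R 4.3.3), with Benjamini-Hochberg adjustment over 29938 genes. The fit was tested on simulated data. The number of arrays limits the precision.

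Members, lists and tests were chosen with earlier results of these data known. All members were to be named, with the 2 genes of smallest p in each direction from each other pathway list and the 5 genes most like the members' mean. 1 gene that this rule named is not reported here. Alternatives were other scalings, background corrections, filters and probe rules, an intensity trend, slide and replicate blocks, and each replicate left out. Normexp used the median spot intensity and an offset of 50. On slide 2 alone, vehicle 3 is taken to vary as much as treated arrays do.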

Additional observations from a re-analysis of the deposited data

How the results depend on the processing

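No interferon response gene passed a limma adjusted p of 0.05 under any of 18 alternatives, the lowest value being 0.0594 (Ifit2, slide as a fixed block), and 11 members (Irf1, Irf7, Ifit1, Oasl2, Stat2, Bst2, Dhx58, Rtp4, Psmb8, Psmb9 and Parp14) kept their sign in all of them in which they were measured. Over all genes, limma called 1 with quantile normalization, 2 with normexp, 8 with an intensity trend, 1 with slide as a random block and 0 to 814 with a replicate left out, the highest without vehicle 3. Members at an unadjusted p under 0.05 numbered 6 with median scaling (4 higher, 2 lower; 19.4%, against 13.4% of all genes), 5 with the trend (3 higher, 2 lower; 16.1%, against 12.7%), 11 with slide as a fixed block (35.5%, against 31.6%), 10 on slide 2 alone (32.3%, against 27.1%), and 6 with the random block (5 higher, 1 lower; 19.4%, against 20.1%). With a replicate left out they numbered 0 to 7: 0 without phenylbutazone 2 (against 7.78%), 1 without phenylbutazone 3 (3.23%, against 7.40%) and 7 without vehicle 3 (22.6%, against 22.0%). The median was 0.288 with slide as a fixed block and on slide 2 alone, and -0.127 to 0.137 with a replicate left out. Members with groups fully apart numbered 22 on slide 2 alone (71.0%, against 72.6% of all genes) and 7 to 16 with a replicate left out. They numbered 7 (22.6%) without phenylbutazone 1 (against 32.6%), phenylbutazone 2 (against 28.3%) or vehicle 1 (against 30.2%). Without phenylbutazone 3 they numbered 8 (25.8%, against 27.6%), without vehicle 2 9 (29.0%, against 28.8%) and without vehicle 3 16 (51.6%, against 43.7%). The block settings have no such count, and Ifit1 has no value where all 6 arrays had to be well above background.

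Signs turned as follows, and the cause was not tested. With median scaling Irf9 was 0.037, Isg15 0.047, Ifit3 0.0092 and Ifi44 0.026, and with quantile normalization Irf9 was 0.011. With normexp Mx2 was -0.072, Isg15 0.0050 and Oas1a -0.010. With the mean of a gene's probes Mx2 was -0.13, Oas1a -0.062, Gbp5 -0.53 and Eif2ak2 0.049. With slide as a fixed block and on slide 2 alone Irf8 was -0.0087, Irf9 0.066, Mx1 0.31, Isg15 0.44, Ifit3 0.56, Oas1b 0.081, Usp18 0.29, Ifi44 0.51, Ifih1 -0.029, Tap1 -0.0049, Cmpk2 0.17 and Eif2ak2 0.089. With slide as a random block Irf9 was 0.038, Mx1 0.14, Isg15 0.28, Ifit3 0.35, Oas1b 0.031, Usp18 0.12, Ifi44 0.32, Ifih1 -0.0003, Cmpk2 0.076 and Eif2ak2 0.033. With a replicate left out the range was -0.22 to 0.030 for Cmpk2, -0.15 to 0.13 for Gbp2, -0.12 to 0.22 for Gbp5, -0.061 to 0.53 for Ifi27, -0.29 to 0.14 for Ifi44, -0.024 to 0.13 for Ifih1, -0.087 to 0.31 for Ifit2, -0.34 to 0.17 for Ifit3, -0.059 to 0.018 for Irf9, -0.22 to 0.16 for Isg15, -0.18 to 0.22 for Mx2, -0.20 to 0.38 for Oas1a, -0.13 to 0.0083 for Oas1b, -0.12 to 0.15 for Oasl and -0.41 to 0.16 for Rsad2. Of members whose sign held with each replicate left out, the range was -0.40 to -0.0047 for Mx1, -0.40 to -0.0043 for Usp18, 0.098 to 0.24 for Bst2, 0.072 to 0.23 for Tap1, 0.049 to 0.26 for Parp14 and -0.14 to -0.0031 for Eif2ak2.

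With the replicate number as a replicate block limma called 0 genes and 0 members, and the median stayed at 0.021. In that setting 2 members had an unadjusted p under 0.05 (6.45%, against 9.0% of all genes). Same-numbered arrays did not deviate together: the correlations of their deviations over genes were -0.030, 0.011 and -0.074 for numbers 1, 2 and 3, so the numbers were not taken as pairs. Ifit1, the 4 dimmest ligands and other probes near background are limited by signal.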
